A study of Mus musculus with 2 samples.

Results

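Heme and iron handling was followed in MC38 tumors through 10 genes, Hmox1, Slc40a1, Fth1, Ftl1, Slc11a1, Slc48a1, Tfrc, Cd163, Blvrb and Lcn2. The genes were picked by symbol. All 10 were found among the 32285 genes of each matrix, and 21607 of those genes had a UMI (a counted RNA molecule) in the deposited droplets.

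Macrophages recover iron from hemoglobin and from the cells they engulf. CD163 takes up hemoglobin bound to haptoglobin, and the transporter encoded by Slc48a1 moves heme out of the phagolysosome. Heme oxygenase 1 (Hmox1) opens the heme ring and releases iron and biliverdin. Biliverdin reductase B (Blvrb) is listed here with heme breakdown, but is not taken as the enzyme that acts on that biliverdin. The iron is stored in ferritin, made of heavy (Fth1) and light (Ftl1) chains, or leaves through ferroportin (Slc40a1), the iron exporter. Transferrin receptor (Tfrc) brings transferrin-bound iron into dividing cells, Slc11a1 pumps metal ions out of the phagosome, and lipocalin 2 (Lcn2) binds iron-loaded siderophores.

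MC38, a mouse colon cancer line, was grown under the skin of female C57BL/6 mice inoculated at 6 to 8 weeks of age, either wild type (Lmo7+/+) or carrying a genomic knockout of Lmo7 (Lmo7-/-). The deletion is in every host cell, while the injected tumor cells are the same unmodified line in both hosts. Tumors were dissociated at warm temperature, red blood cells were lysed, and live cells were sorted and profiled by droplet single-cell RNA sequencing. There was 1 library per genotype, and neither the labels nor the methods say how many mice went into each, so no difference between the libraries has a replicate check and none carries a p-value. Every interval below is a 95% interval that covers counting error only.

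The matrices held 16208 droplets for Lmo7+/+ and 15163 for Lmo7-/-, beside about 10000 sorted cells resuspended per library according to the labels. After filtering, 13542 and 11860 cells remained, with medians of 4535.5 and 4304.5 UMIs per cell. The libraries shared 175 barcodes among kept cells, and leaving those cells out changed none of the counts of genes called below. Lmo7 itself had 41 UMIs (1.46 CPM, UMIs per 1000000 UMIs) among named host cells of the Lmo7+/+ library and 32 (1.18 CPM) among those of the other. Its RNA thus stood at nearly the same low level in both, so these counts do not bear out the label, and which part of the gene was deleted is not given in the sources used here. The knockout therefore rests on its label, and "the library labelled Lmo7-/-" is meant wherever a direction is given.

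The genes lie apart in the genome (build GRCm38). The heme genes are Cd163 (chr6:124304656-124330527, plus strand), Slc48a1 (chr15:97778520-97792692, plus), Hmox1 (chr8:75093621-75100589, plus) and Blvrb (chr7:27447978-27466144, plus). The storage and export genes are Fth1 (chr19:9980598-9985098, plus), Ftl1 (chr7:45457944-45459884, minus) and Slc40a1 (chr1:45908068-45926523, minus). The remaining genes are Slc11a1 (chr1:74375195-74386062, plus), Tfrc (chr16:32608920-32632794, plus) and Lcn2 (chr2:32384633-32388252, minus).

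Iron controls the RNAs of 4 of the 10 genes through the iron-responsive element, a hairpin with a CAGTGN loop (N is any base) that iron regulatory proteins bind when iron is low. In the 5′ UTR the element blocks translation, and in the 3′ UTR it protects the RNA from decay. Because the 5′ UTR form acts on protein output rather than on RNA amount, the UMI counts below do not see that layer for Fth1, Ftl1 and Slc40a1, whereas for Tfrc the elements act on the quantity counted here. A search of annotated mouse UTRs (build GRCm38) for C, 5 bases and CAGTGN, with the 5 bases before the loop paired to the 5 after it, gave 1 match in the 5′ UTR of Fth1 (chr19:9982733-9982759, plus strand), 1 in that of Ftl1 (chr7:45459780-45459806, minus strand), 1 in that of Slc40a1 (chr1:45925466-45925492, minus strand) and 4 in the 3′ UTR of Tfrc (chr16:32631220-32631246, chr16:32631599-32631625, chr16:32631664-32631690 and chr16:32631711-32631737, plus strand). The 7 sites are shown 5′ to 3′ as DNA, with the loop in capitals, because they separate the storage and export genes from the uptake gene.
Fth1, 5′ UTR: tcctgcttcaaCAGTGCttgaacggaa
Ftl1, 5′ UTR: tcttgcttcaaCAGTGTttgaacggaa
Slc40a1, 5′ UTR: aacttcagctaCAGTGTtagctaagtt
Tfrc, 3′ UTR, first site: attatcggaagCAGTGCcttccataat
Tfrc, 3′ UTR, second site: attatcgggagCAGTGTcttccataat
Tfrc, 3′ UTR, next site: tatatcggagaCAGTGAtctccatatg
Tfrc, 3′ UTR, last site: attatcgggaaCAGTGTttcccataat
Among 21842 protein-coding genes, 31 (0.142%) held such a match in a 5′ UTR and 129 (0.591%) in a 3′ UTR. The other 6 genes had none in either UTR.

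Cells were clustered without the 10 genes and without a wider list of heme and iron genes, so those genes did not set the groups compared here. Other genes described below, such as stress genes, were not left out and may have helped set the groups. Macrophage-like cells, 3574 in the Lmo7+/+ library and 4116 in the other, formed 4 clusters that each held all 12 macrophage markers at a level of at least 5 CPM. Tumor cell-like cells, 5415 and 3705, formed 3 clusters with 7 or 8 of 16 tumor markers at that level. The other named classes were monocytic myeloid-derived suppressor cell-like (M-MDSC-like), dendritic-like, T-like, fibroblast-like and endothelial-like cells, plus a few B-like and mast-like cells. Clusters led by Enpp2 and Serpine2, 910 and 1099 cells, did not pass the marker rules and keep those gene names. Levels are given in CPM, the UMIs of a gene summed over a class in 1 library, per 1000000 UMIs of that class.

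Red blood cell RNA was nearly absent. Hemoglobin UMIs were seen in 17 of 25402 kept cells, and 1 Lmo7+/+ droplet of 1048 UMIs held 267 of them, which left 17 in all other cells. The erythroid genes Alas2 and Klf1 had 2 and 29 UMIs.

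Macrophage-like cells carried more RNA for storage, export, phagosomal metal transport and heme breakdown than tumor cells did. A gene was counted when it differed at least 2-fold in the same direction in each library, with intervals that excluded equality. Of the 10 genes, 6 were counted on the macrophage side, beside 16.3% of the 13328 genes compared, and 2 on the tumor side, beside 31.3%. The macrophage side held Slc40a1, Fth1, Ftl1, Slc11a1, Cd163 and Blvrb, and the tumor side Tfrc and Lcn2. With the trimmed mean of M values (TMM) scaling in place of total UMIs, the split was 7 to 0, with Hmox1 added and Tfrc and Lcn2 no longer counted.

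Slc11a1 marked the macrophage side most sharply. In the Lmo7+/+ library it stood at 312 CPM (interval 305 to 320) in macrophage-like and 6.53 CPM in tumor cell-like cells, and in the other at 419 CPM (410 to 428) and 5.45 CPM. The ratio of macrophage to tumor was 47.8-fold and 76.8-fold. C57BL/6 mice carry a loss-of-function allele of Slc11a1, which changes the protein and is not visible in a count of its RNA. With every cell thinned to 1500 UMIs, 35.6% and 45.5% of macrophage-like cells had a Slc11a1 UMI, against 1.41% and 1.31% of T-like cells, a type that should lack it, and 65.7% and 73.2% against 3.81% and 1.78% before thinning. Thinning left out 331 and 442 macrophage-like and 152 and 193 T-like cells with fewer UMIs. Macrophage-like cells had medians of 4975 and 4292.5 UMIs, and T-like cells of 2155 and 2208.

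Both ferritin chains were also higher in macrophage-like than in tumor cell-like cells. Fth1 measured 10492 (Lmo7+/+) and 12662 (Lmo7-/-) CPM in macrophage-like cells, against 3543 and 3309 CPM in tumor cell-like cells, a difference of 2.96-fold and 3.83-fold. Ftl1 measured 4782 and 4535 CPM against 1066 and 1065 CPM, which is 4.49-fold and 4.26-fold. M-MDSC-like cells came next for both chains in the pooled order, with Fth1 close to macrophage-like cells at 9748 and 9841 CPM. Tumor cell-like cells ranked above fibroblast-like and endothelial-like cells for Fth1 and below both for Ftl1. T-like cells were lowest among the classes ranked, which leave out the few B-like and mast-like cells. A processed copy, Ftl1-ps1, had 14615 UMIs, 4.30% of the 340104 of Ftl1, so some Ftl1 reads may have been counted at the copy.

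Blvrb stood at 121 and 155 CPM in macrophage-like cells and 23.5 and 26.7 CPM in tumor cell-like cells, 5.16-fold and 5.80-fold apart. Hmox1 was less restricted. It reached 204 (197 to 210) and 269 (261 to 276) CPM in macrophage-like cells and 121 and 149 CPM in tumor cell-like cells, 1.68-fold and 1.81-fold apart and under the 2-fold limit. Slc48a1 differed by 1.22-fold and 1.31-fold, with 77.5 and 99.99 CPM in macrophage-like cells against 63.7 and 76.2 CPM.

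Ferroportin RNA was sparse, and its highest class was neither of these. Slc40a1 had 195 and 219 UMIs in macrophage-like cells (10.1 and 11.1 CPM) and 140 and 59 in tumor cell-like cells (2.69 and 1.85 CPM). The Enpp2 Serpine2 clusters held 177 and 288 UMIs, at 21.9 and 24.9 CPM, above macrophage-like cells in both libraries. Within them the cluster led by Enpp2 and Tubb2b had 34.2 CPM (47 UMIs) and 64.4 CPM (240 UMIs). When these clusters were counted as tumor cells, Slc40a1 and Cd163 were no longer counted on the macrophage side, and 6 genes rather than 8 passed.

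Tfrc went the other way. Macrophage-like cells had 26.6 and 20.5 CPM, tumor cell-like cells 65.4 and 67.5 CPM, T-like cells 83.7 and 81.3 CPM, and the Enpp2 Serpine2 clusters 61.8 and 89.7 CPM. T-like cells and the Enpp2 Serpine2 clusters headed the pooled order with intervals that overlapped. The cluster of tumor cells with few UMIs per cell was the low one for Tfrc, at 14.3 and 19.4 CPM, whereas the cluster led by Car9 and Krt14 and the cycling cluster lay between 65.8 and 73.2 CPM.

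**Figure D1:**
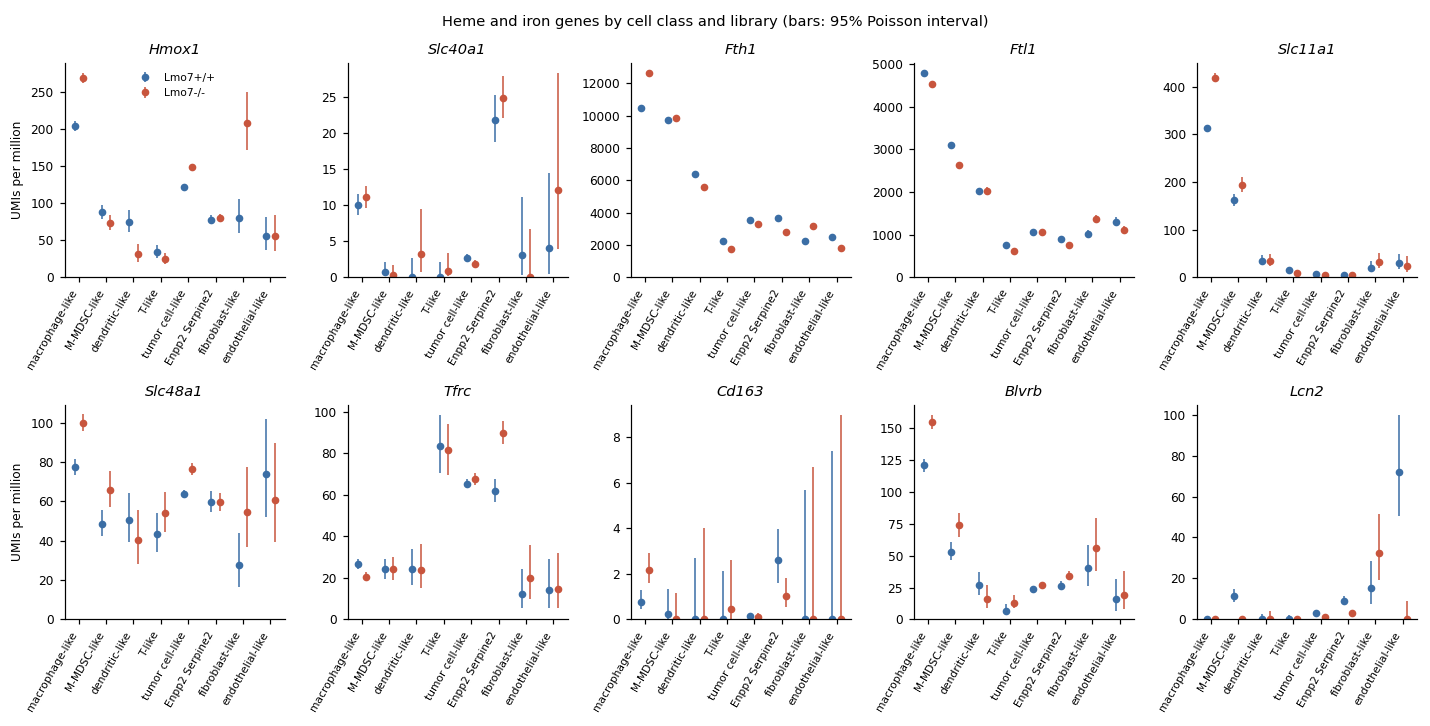
UMIs per 1000000 UMIs (y axis, from 0, a scale of its own in each panel) of each of the 10 genes in 8 cell classes (x axis), with 1 point per library, blue for Lmo7+/+ and red for Lmo7-/-, and bars for the 95% Poisson interval of the counts. Slc11a1, Fth1, Ftl1 and Blvrb peak in macrophage-like cells in both libraries, Slc40a1 in the Enpp2 Serpine2 clusters, and Tfrc is low in macrophage-like cells, at 26.6 and 20.5.

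Macrophage-like cells were then divided into 9 states, of which 8 had at least 50 cells in each library. The states are named by the markers or genes that led them, as proliferating, interferon, Ccr2 Ly6c2, Igf1 Ccl8 Vcam1, Cd300e Xcr1, Arg1 Mmp12 Gpnmb, Retnla Lyve1 Folr2 and Sox9 Sparc. The state left out, led by Egr1 and Il12b, had 41 and 23 cells. Heat shock genes (Hspa1a and Hspa1b) were among the leading genes of the Arg1 Mmp12 Gpnmb state, Hspa1a and Atf3 among those of the interferon state, and immunoglobulin genes among those of the Cd300e Xcr1 state. The Sox9 Sparc state carried tumor marker UMIs at 242 and 286 CPM, against 51.2 to 168 CPM in the other 7. Of 8 genes with enough counts, 5 differed at least 2-fold between their highest and lowest state in both libraries (Hmox1, Slc40a1, Fth1, Ftl1 and Slc48a1), beside 58.5% of 11084 genes. A share of 5 in 8 is close to that background, and with a more lenient filter on cells the count was 9, so little is read from how many genes varied.

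Hmox1 RNA was concentrated in a pair of states. The Arg1 Mmp12 Gpnmb state had 1404 (1335 to 1475) and 1251 (1194 to 1311) CPM, and the Retnla Lyve1 Folr2 state, named for a secreted resistin-like protein and for resident macrophage surface receptors, 686 (601 to 781) and 1217 (1109 to 1333) CPM. The remaining 6 ran from 96.1 to 224 CPM. The Arg1 Mmp12 Gpnmb state was 6.72% and 8.43% of macrophage-like cells and held 39.6% and 33.9% of their Hmox1 UMIs.

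The pattern held in the share of cells and did not rest on a single droplet. With cells thinned to 1500 UMIs, 59.3% (52.5 to 65.8) and 60.6% (54.9 to 66.0) of Arg1 Mmp12 Gpnmb cells had a Hmox1 UMI, and 47.5% (34.6 to 60.7) and 57.1% (44.7 to 68.9) of Retnla Lyve1 Folr2 cells. In the other 6 states the share was 11.4% to 21.9%, and in T-like cells 3.76% and 2.80%. Before thinning the shares were 78.8% and 77.2% for the Arg1 state, 68.6% and 84.0% for the Retnla state, and 6.76% and 6.04% for T-like cells. In the Lmo7+/+ library 1 cell of the Arg1 state held 242 Hmox1 UMIs, and without the top cell of each library the state stood at 1197 and 1185 CPM.

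Genes that respond to tissue dissociation and heat moved with this pattern in part, and Hmox1 itself is a stress-inducible gene. The summed level of 8 such genes (Fos, Jun, Junb, Egr1, Atf3, Hspa1a, Hspa1b and Dnajb1) was 9224 and 5912 CPM in the Arg1 Mmp12 Gpnmb state and 2805 and 4283 CPM in the Retnla Lyve1 Folr2 state. It was 6354 and 6988 CPM in the interferon state, where Hmox1 was 199 and 200.01 CPM, and 1512 to 2206 CPM in the other 5. These stress genes were not left out of the clustering, so they may have helped set the states. The part of stress in the Hmox1 levels was not tested.

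Slc48a1, the heme exporter of the phagolysosome, peaked in the same states. It had 150 and 180 CPM in the Retnla Lyve1 Folr2 state and 135 and 161 CPM in the Arg1 Mmp12 Gpnmb state, with pooled intervals that overlapped, and 63.9 to 121 CPM elsewhere. Over the 16 points (8 states in each library), Hmox1 and Slc48a1 on the log2(CPM + 1) scale had a Pearson correlation of 0.87 and a Spearman correlation of 0.62, a description over points that share libraries and depth. Blvrb was flatter, from 88.1 to 153 CPM in the Lmo7+/+ library and 122 to 177 CPM in the other, a range of 1.74-fold and 1.46-fold.

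Cd163, the hemoglobin-haptoglobin receptor, was nearly confined to the Retnla Lyve1 Folr2 state. That state held 10 of the 15 macrophage Cd163 UMIs for Lmo7+/+ and 42 of the 43 for Lmo7-/-, at 29.5 (14.1 to 54.2) and 109 (78.9 to 148) CPM. No other state had more than 3. A UMI of Cd163 was seen in 9 of 70 and 11 of 81 cells of the state, so the receptor's RNA was found in few cells even there. Without the top cell of each library the state had 24.3 and 86.8 CPM.

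The ferritin chains were highest in the Arg1 Mmp12 Gpnmb state. Fth1 reached 21839.5 and 24702 CPM there, 1.86-fold and 1.72-fold above the next state (Igf1 Ccl8 Vcam1), and Ftl1 reached 10198 and 8915 CPM, 1.42-fold and 1.61-fold above the Retnla Lyve1 Folr2 state. The chains parted in the Retnla Lyve1 Folr2 state. Ftl1 was second there at 7163 and 5547 CPM, whereas Fth1, at 9911 and 8955 CPM, was in the middle of the order in the Lmo7+/+ library and lowest of the 8 in the other, and its pooled interval overlapped those of the interferon and Sox9 Sparc states. Over the 16 points Hmox1 had a Pearson correlation of 0.87 with Ftl1 (Spearman 0.76) and of 0.61 with Fth1 (Spearman 0.43).

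Ferroportin did not keep its order between libraries. Slc40a1 was highest in the Arg1 Mmp12 Gpnmb state of the Lmo7+/+ library, at 44.0 CPM (49 UMIs), where the other library had 15.3 CPM (22 UMIs), and highest in the Igf1 Ccl8 Vcam1 state of the latter, at 31.3 CPM (146 UMIs), where the former had 16.7 CPM (58 UMIs). The Retnla Lyve1 Folr2 state had 32.4 and 26.1 CPM on 11 and 10 UMIs. Of those 11 UMIs 10 came from 1 cell, so that state could not be placed. In the Ccr2 Ly6c2, Cd300e Xcr1, proliferating and interferon states the level ran from 1.05 to 8.0 CPM.

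Slc11a1 peaked elsewhere, in the Cd300e Xcr1 state, at 470.5 and 596 CPM, 1.40-fold and 1.44-fold above the Igf1 Ccl8 Vcam1 state that followed. Its lowest states were interferon (239 CPM) in the Lmo7+/+ library and Ccr2 Ly6c2 (292 CPM) in the other. Tfrc ranged from 13.5 to 36.5 CPM over all states, and neighbouring states in its pooled order had overlapping intervals throughout. Lcn2 had 6 and 7 UMIs in all macrophage-like cells, too few to be placed.

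**Figure D2:**
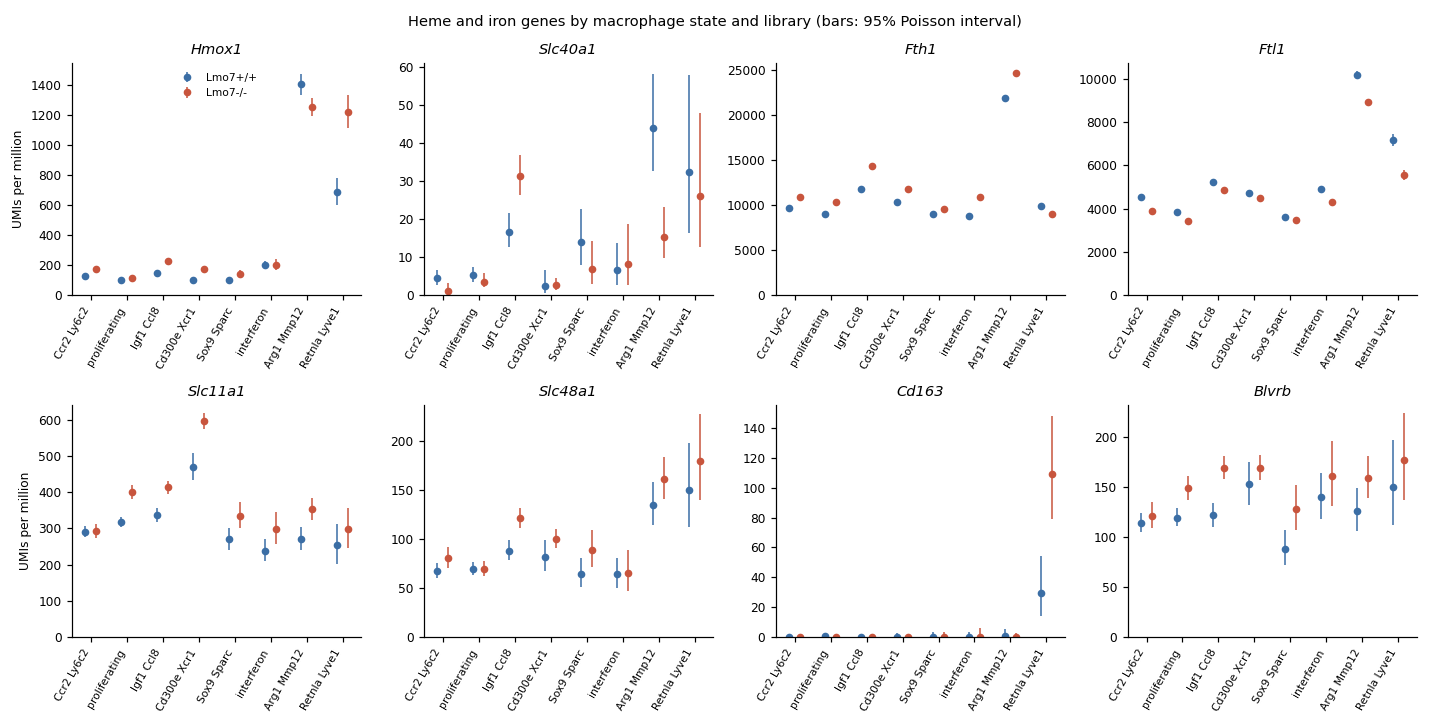
UMIs per 1000000 UMIs (y axis, from 0, a scale of its own in each panel) of 8 of the genes in 8 macrophage states (x axis), with 1 point per library, blue for Lmo7+/+ and red for Lmo7-/-, and bars for the 95% Poisson interval of the counts. Hmox1 is above 600 in the Arg1 Mmp12 Gpnmb and Retnla Lyve1 Folr2 states and at 224 or below elsewhere, Fth1 and Ftl1 peak in the Arg1 Mmp12 Gpnmb state, Slc11a1 in the Cd300e Xcr1 state, and Cd163 in the Retnla Lyve1 Folr2 state.

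The genes with the most similar patterns were mostly outside heme and iron handling. Among the 7002 candidates, each with at least 500 macrophage UMIs, the ones most like Hmox1 over the 16 points were Plin2 (Pearson r = 0.98), a lipid droplet coat protein, Sdcbp (0.96) and Cstb (0.95), a cathepsin inhibitor. Those most like Fth1 were Lgals3, Gde1 and Suco (each 0.93). Ftl1 was followed by Cd68 (0.95), a lysosomal membrane protein of macrophages, Flcn (0.94) and its own copy Ftl1-ps1 (0.93). Slc48a1 was followed by Creg1 (0.94), Lmbrd1 (0.93), which exports cobalamin from lysosomes, and Pttg1ip (0.93). Slc11a1 was followed by Itgb2 (0.87), Hvcn1 (0.86) and Tcf7l2 (0.83), Blvrb by Lrrc8c (0.85), Crlf2 (0.83) and Cyba (0.82), and Tfrc by Cc2d1b (0.87), Scaf4 (0.82) and Bag5 (0.81).

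Between the libraries, most of the 10 genes differed by less than 1.5-fold in macrophage-like cells. A gene was counted when it had at least 20 UMIs over both libraries, differed at least 1.5-fold and had an interval of the ratio that excluded equality. Of 9 genes with enough UMIs, 1 was higher in the library labelled Lmo7-/- (Cd163) and 0 were lower, beside 2.48% of 12172 genes higher and 4.16% lower. The median log2 ratio over all genes was -0.11 with total UMIs and -0.00072 with TMM, so each ratio is read against -0.11.

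Cd163 had 15 UMIs (0.774 CPM, 0.433 to 1.28) in the Lmo7+/+ library and 43 (2.17 CPM, 1.57 to 2.93) in the library labelled Lmo7-/-, a log2 ratio of 1.49 (0.61 to 2.45). The UMIs came from 14 and 12 cells, and 1 cell of the latter library held 10. Without the top cell of each library the log2 ratio was 1.32 (0.35 to 2.37). No direction is read from the share of cells, which did not follow the CPM, and with a minimum of 100 UMIs in place of 20 the gene was not tested and the count fell from 1 to 0.

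Hmox1, Slc48a1, Blvrb and Slc11a1 were higher in the library labelled Lmo7-/-, each short of 1.5-fold and so not counted. Hmox1 went from 204 to 269 CPM (log2 ratio 0.40, 0.34 to 0.46), Slc48a1 from 77.5 to 99.99 CPM (0.37, 0.27 to 0.47) and Blvrb from 121 to 155 CPM (0.36, 0.28 to 0.44). The related enzymes Hmox2 (-0.05) and Blvra (-0.07) and the heme exporter Flvcr1 (-0.07) had intervals that spanned 0. Slc11a1 went from 312 to 419 CPM (0.42, 0.38 to 0.47). Slc11a1 and Slc48a1 are among the genes that the study singled out from these libraries, so their direction is not independent evidence.

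Storage, export and uptake genes differed less or went down. Fth1 went from 10492 to 12662 CPM (0.27, 0.26 to 0.28) and Ftl1 from 4782 to 4535 CPM (-0.08, -0.09 to -0.06, and 0.03 with TMM), which is close to the median gene. Slc40a1 (0.14, -0.15 to 0.42) and Lcn2 (0.19, -1.60 to 2.04) had intervals that spanned 0. Tfrc went from 26.6 to 20.5 CPM (-0.37, -0.57 to -0.18).

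**Figure D3:**
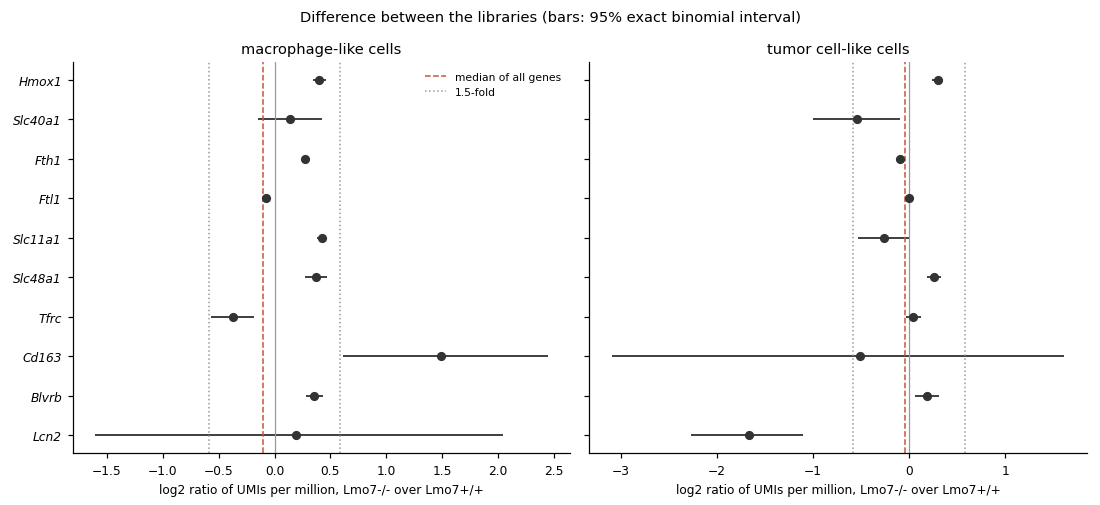
Log2 ratio of CPM, Lmo7-/- over Lmo7+/+ (x axis, with a range of its own in each panel), of the 10 genes (y axis) in macrophage-like cells on the left and tumor cell-like cells on the right. Bars are 95% exact binomial intervals, the dashed red line is the median of all genes and dotted lines mark 1.5-fold. Cd163 at 1.49 in macrophage-like cells and Lcn2 at -1.67 in tumor cell-like cells lie past the dotted lines with intervals that exclude 0.

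The libraries differed in the makeup of their macrophages, so each gene was also compared within states. The Cd300e Xcr1 state was 8.98% of macrophage-like cells in the Lmo7+/+ library and 27.7% in the other, and the Ccr2 Ly6c2 state 25.97% and 14.8%. Within states, Slc11a1 and Blvrb were higher in the library labelled Lmo7-/- in each of the 8, and Ftl1 was lower in each with total UMIs, a scaling under which its pooled sign also differed from that with TMM. Those are 2 and 1 of 8 genes with enough counts, beside 2.51% and 6.68% of 9131 genes. Slc11a1 ratios ran from 0.00 in the Ccr2 Ly6c2 state to 0.38 in the Arg1 Mmp12 Gpnmb state on the log2 scale, Blvrb from 0.09 to 0.54 and Ftl1 from -0.37 to -0.06. The Blvrb interval spanned 0 in the Ccr2 Ly6c2, Cd300e Xcr1, interferon and Retnla Lyve1 Folr2 states. That of Slc11a1 spanned 0 in the Ccr2 Ly6c2 and Retnla Lyve1 Folr2 states, and that of Ftl1 in the Sox9 Sparc state. Against the median of all genes in a state, Ftl1 was above it in Cd300e Xcr1 (-0.070 against -0.088) and Sox9 Sparc (-0.057 against -0.064). It was below that median in the rest. Without the top cell of each library the Slc11a1 ratio was -0.0042 (-0.13 to 0.12) in the Ccr2 Ly6c2 state and above 0 in the other 7, so that Blvrb alone of the 8 genes was above 0 in each.

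The mean of the 8 within-state log2 ratios was 0.41 for Hmox1, 0.28 for Slc11a1, 0.29 for Blvrb, 0.25 for Slc48a1, 0.16 for Fth1, -0.17 for Ftl1 and -0.24 for Tfrc. Slc11a1, Slc48a1, Fth1 and Blvrb thus kept their sign with a smaller ratio than in the pooled cells. Slc40a1 did not keep its sign. Its within-state mean was -0.51 with 3 states higher and 5 lower. Only the Arg1 Mmp12 Gpnmb state (-1.53, -2.32 to -0.77) and the Igf1 Ccl8 Vcam1 state (0.91, 0.46 to 1.37) had at least 20 Slc40a1 UMIs in each library, and their ratios were of opposite sign.

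Hmox1 was higher in the library labelled Lmo7-/- in 7 of the 8 states. The ratio was 0.83 (0.60 to 1.06) in the Retnla Lyve1 Folr2 state, 0.82 (0.55 to 1.10) in the Cd300e Xcr1 state and 0.60 (0.45 to 0.76) in the Igf1 Ccl8 Vcam1 state, whereas it was -0.17 (-0.26 to -0.07) in the Arg1 Mmp12 Gpnmb state and 0.01 (-0.32 to 0.33) in the interferon state. Without the top cell of each library these became 0.70, 0.84, 0.58, -0.02 and 0.05. Dissociation stress genes moved the same way in part, rising from 2805 to 4283 CPM in the Retnla Lyve1 Folr2 state and dropping from 9224 to 5912 CPM in the Arg1 Mmp12 Gpnmb state, while in the Cd300e Xcr1 and Igf1 Ccl8 Vcam1 states they were 2130 and 1938 CPM and 2048 and 1785 CPM. Their part in the Hmox1 differences was not tested.

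**Figure D4:**
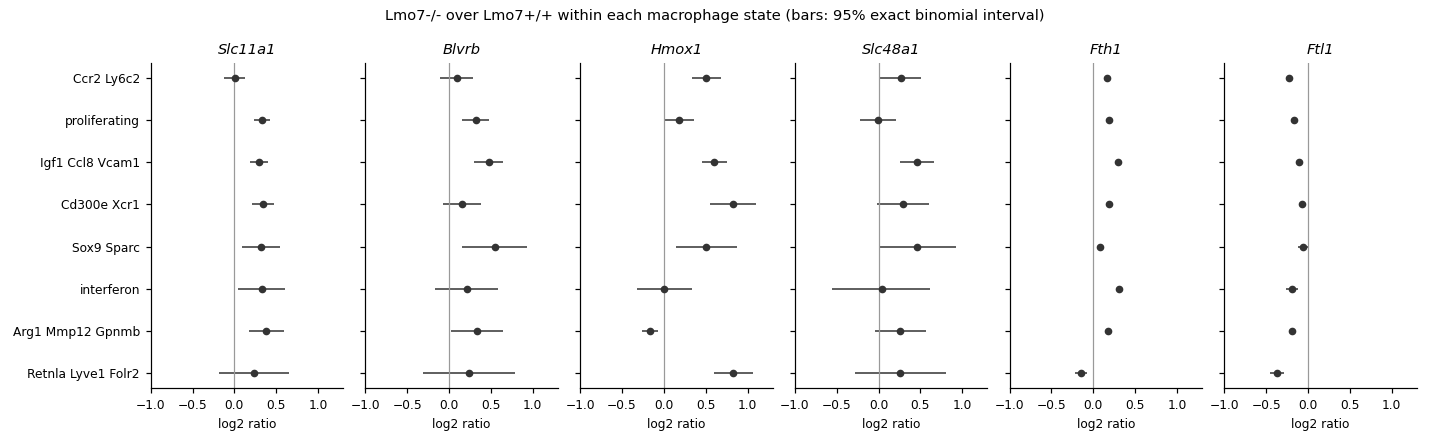
Log2 ratio of CPM, Lmo7-/- over Lmo7+/+ (x axis), of 6 genes (panels) within each of 8 macrophage states (y axis), with 95% exact binomial intervals and a line at 0. Slc11a1 and Blvrb are at or above 0 in all 8 states, Ftl1 is below 0 in all 8, and Hmox1 runs from -0.17 in the Arg1 Mmp12 Gpnmb state to 0.83 in the Retnla Lyve1 Folr2 state.

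In tumor cell-like cells, which carry the same unmodified genome in both hosts, 0 of 9 genes were counted as higher in the library labelled Lmo7-/- and 1 as lower, Lcn2, beside 1.89% and 2.34% of 13750 genes. Lcn2 had 161 UMIs in 68 cells (3.09 CPM, 2.63 to 3.61) of the Lmo7+/+ library and 31 UMIs in 18 cells (0.972 CPM, 0.66 to 1.38) of the other. The log2 ratio was -1.67 (-2.27 to -1.11), and -1.79 without the top cell of each library. Some neutrophil granule genes were lower in the same cells too, with 25 and 1 UMIs of S100a9, 5 and 1 of Mmp8 and 5 and 0 of Ngp. S100a8 had 42 and 30 UMIs, which relative to all UMIs of these cells was not lower in the library labelled Lmo7-/-. The sum of 10 neutrophil markers was 530 and 476 CPM and included 409 and 285 UMIs of Cxcr2, 9 and 8 markers were detected, and Ly6g was at 0 in both libraries. Their part in the Lcn2 difference was not tested.

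Hmox1 in tumor cells depended on the cluster. In the cluster led by Car9, a target of hypoxia signalling, and Krt14, it was 151 CPM in the Lmo7+/+ library and 217 CPM in the other (log2 ratio 0.53, 0.46 to 0.59), and in the cycling cluster 89.0 and 79.3 CPM (-0.17, -0.27 to -0.06). Over all tumor cell-like cells it was 121 and 149 CPM (0.30, 0.24 to 0.35). Car9 itself was 227 and 314 CPM in those cells, and its part in the Hmox1 difference was not tested. Slc48a1 was also higher in the Car9 Krt14 cluster, at 69.5 and 91.8 CPM, than in the cycling cluster, at 56.1 and 59.2 CPM.

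Ferritin and transferrin receptor were nearly level between hosts in tumor cells. Fth1 had a log2 ratio of -0.10 (-0.11 to -0.09) and Tfrc of 0.05 (-0.03 to 0.12), against a median over all genes of -0.05. Slc40a1 went from 140 to 59 UMIs, 2.69 to 1.85 CPM (-0.54, -1.004 to -0.09), which is short of 1.5-fold, and the direction turned to a call of higher (0.60) when the Enpp2 Serpine2 clusters were counted as tumor cells, an alternative chosen after seeing the data. It was lower past 1.5-fold in the Car9 Krt14 cluster alone among the 3 clusters (3.73 and 2.13 CPM on 99 and 33 UMIs, -0.80, -1.42 to -0.22).

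Lcn2 differed in other classes as well, mostly on few cells. M-MDSC-like cells had 48 UMIs in 14 cells of the Lmo7+/+ library (11.3 CPM) and 1 UMI in the other (0.312 CPM). Endothelial-like cells had 36 UMIs in 10 cells (72.0 CPM) and 0 UMIs, at least 9.88-fold lower with 3 UMIs taken as the limit of the sum. The Enpp2 Serpine2 clusters had 73 UMIs in 10 cells (9.02 CPM) and 35 in 6 cells (3.02 CPM), of which 5 cells held 68 and 34. Fibroblast-like cells ran the opposite way, with 10 and 18 UMIs and an interval of the log2 ratio that spanned 0 (1.08, -0.11 to 2.36).

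Neutrophil granule and marker genes moved with Lcn2, itself a neutrophil granule gene, in M-MDSC-like cells. Of 10 neutrophil markers, 10 had UMIs in the Lmo7+/+ library and 8 in the other, with a summed level of 1789.5 and 1384 CPM. Retnlg had 64 and 2 UMIs, S100a8 329 and 14, S100a9 274 and 2 and Ly6g 2 and 0, and of the 14 cells with Lcn2, 6 also had Retnlg. Their part in the Lcn2 difference was not tested. In endothelial-like cells Retnlg and Ly6g were at 0 in both libraries and 4 and 2 of the 10 markers had UMIs.

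Dendritic-like cells had 102 and 29 Hmox1 UMIs (74.9 and 31.5 CPM, log2 ratio -1.25), but 1 cell of the Lmo7+/+ library held 77 of its 102 UMIs. Without the top cell of each library the levels were 18.4 and 19.7 CPM (0.09, -0.87 to 1.03), so the difference rests on that cell. Fibroblast-like cells had 52 and 115 Hmox1 UMIs, 80.0 and 208 CPM (1.38, 0.90 to 1.88), and 71.7 and 170 CPM (1.24, 0.72 to 1.79) without the top cells. In the same cells Fth1 (0.50, 0.40 to 0.60) and Ftl1 (0.42, 0.27 to 0.57) were also higher, Slc11a1 had 13 and 18 UMIs, summed macrophage markers were 1032 and 1389.5 CPM and stress genes 7417 and 6325 CPM. The part of macrophage RNA in the Hmox1 difference was not tested. Fibroblast-like cells numbered 127 and 96.

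Outside macrophages Cd163 was found mainly in the Enpp2 Serpine2 clusters, with 21 UMIs (2.59 CPM) in the Lmo7+/+ library and 12 (1.04 CPM) in the other, a log2 ratio of -1.32 (-2.48 to -0.23). Without the top cell of each library it was -1.06 (-2.31 to 0.14), an interval that spans 0. Over both libraries these clusters had 1.68 CPM and macrophage-like cells 1.48 CPM, with intervals that overlapped. Tfrc was higher in the same clusters of the library labelled Lmo7-/- (0.54, 0.38 to 0.69), and Fth1 lower (-0.39, -0.41 to -0.37). The clusters differed in size between the libraries, from 189 and 409 cells in the one led by Enpp2 and Tubb2b to 181 and 17 in the one led by Acta2 and Creb3l1.

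A wider list of 70 heme and iron genes, 60 of them outside the 10, was measured in macrophage-like cells by role. Of 55 with enough UMIs, 3 were higher in the library labelled Lmo7-/- (Cd163, Cp and Spic) and 0 lower, beside 2.48% and 4.16% of all genes. Counts this small are close to those shares, so little is read from them. The median log2 ratio of the list was -0.02 against -0.11 for all genes. Heme uptake and breakdown had a median of 0.21 over 10 genes, of which 10 were above -0.11, 7 were above 0 and 1, Cd163, was counted. That median includes Cd163, Hmox1, Slc48a1 and Blvrb, already described as higher, so it is not separate evidence. The rest were Abcg2 (0.35), Lrp1 (0.07) and Pgrmc1 (0.02) above 0, and Hmox2 (-0.05), Blvra (-0.07) and Flvcr1 (-0.07) below 0 but above -0.11. Heme synthesis had -0.01 over 11, iron uptake 0.00 over 9, iron storage -0.20 over 5, mitochondrial iron -0.17 over 9 and regulators 0.01 over 8. Iron export held 2 genes with enough UMIs, Slc40a1 at 0.14 and Cp at 0.59.

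The list genes with the largest ratios were few. Spic, the transcription factor of red pulp and iron-recycling macrophages, went from 83 to 170 UMIs, 4.28 to 8.60 CPM (1.01, 0.62 to 1.40), and Cp, the ferroxidase ceruloplasmin that works with ferroportin, from 56.0 to 84.6 CPM (0.59, 0.48 to 0.71). Cp was 117 and 146 CPM in the Cd300e Xcr1 state, its highest, and that state was the larger share of cells in the library labelled Lmo7-/-. With the 10 genes and the list used in clustering, Cp was not counted and the list held 2 genes rather than 3. On the lower side, the metal importer Slc39a8 and the ferrireductase Steap3 each had -0.40, short of 1.5-fold.

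In tumor cell-like cells 56 list genes had enough UMIs. Of these 0 were higher and 2 lower, Lcn2 and Cp (32.8 to 19.3 CPM), beside 1.89% and 2.34% of all genes. The list median was -0.07 against -0.05 for all genes. Between the cell types, 57 list genes were compared. In both libraries 17 were at least 2-fold higher in macrophage-like and 11 in tumor cell-like cells, beside 16.3% and 31.3% of all genes. The tumor-side count was thus under the share over all genes. Among the 11 iron uptake genes compared, 6 were on the tumor side (Tfrc, Tfr2, Steap1, Steap2, Steap3 and Lcn2) and 1 on the macrophage side (Trf, transferrin). As given above, Tfrc and Lcn2 were not counted there with TMM scaling. Of the 5 storage genes compared, 3 were on the macrophage side (Fth1, Ftl1 and Ncoa4, the receptor that takes ferritin to the lysosome) and 0 on the tumor side.

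A list of 10 targets of NRF2, the oxidative stress regulator that also drives Hmox1 and the ferritin chains, was set beside these. In macrophage-like cells their median log2 ratio was 0.08 and none of the 10 was counted as higher or lower, with Slc7a11, the cystine importer, at 38.6 and 55.8 CPM (0.53, 0.39 to 0.67). The NRF2 targets were not left out of the clustering and may have helped set the states. In the Arg1 Mmp12 Gpnmb state their summed level was 3478 and 3325 CPM, against 1846 to 2487 CPM in the other 7. That state was the highest in both libraries for 4 of the 10 (Gclc, Prdx1, Sqstm1 and Srxn1, named after their values were seen), beside 6.62% of all genes. For 7 of 54 heme and iron list genes the Retnla Lyve1 Folr2 state was the highest in both libraries, beside 7.3% of all genes.

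**Figure D5:**
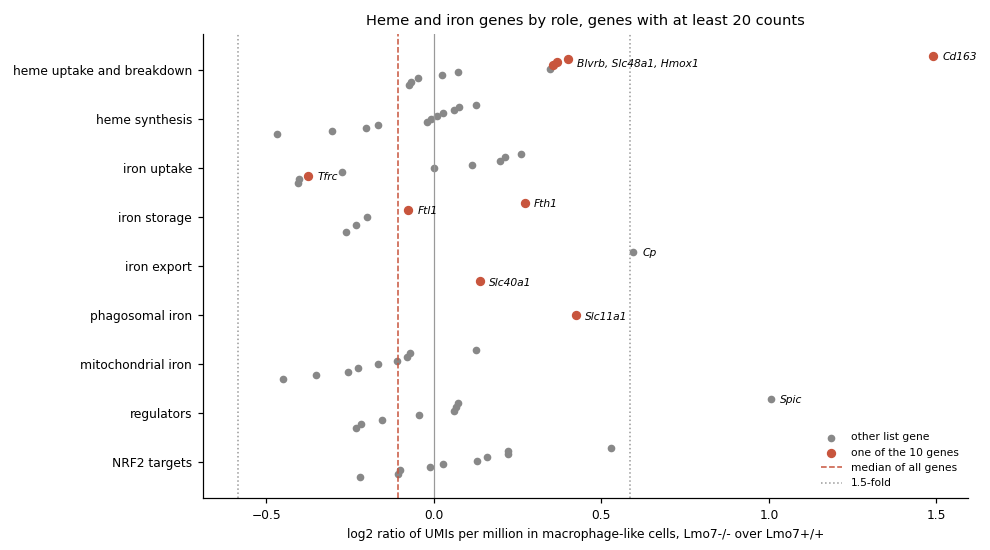
Log2 ratio of CPM in macrophage-like cells, Lmo7-/- over Lmo7+/+ (x axis), of heme and iron genes and NRF2 targets with at least 20 UMIs, grouped by role (y axis). Red points are the 10 genes and gray points other list genes, the dashed red line is the median of all genes (-0.11) and dotted lines mark 1.5-fold. Cd163, Spic and Cp lie past 1.5-fold, and 7 of 10 points of heme uptake and breakdown and 6 of 10 of NRF2 targets lie above 0. Against the dashed line, 10 of 10 and 9 of 10 lie above it.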

How the data were processed

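Droplet single-cell RNA sequencing (10x Chromium) was analysed from 1 Lmo7+/+ and 1 Lmo7-/- MC38 tumor library. The deposited matrices hold UMI counts per gene and droplet, made by the authors with Cell Ranger 2.1.1 on mm10 per the submitters' processing notes. The annotation release is not given in the sources used here. The authors' filters, clusters and cell names were not used.

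Droplets were kept from 500 genes and 1000 UMIs upward, provided that mitochondrial genes took no more than 15% of the UMIs. Counts were scaled to 10000 per cell and log transformed, and 2000 variable genes, excluding the 10 genes and the heme and iron list, gave 30 principal components, a shared-neighbour graph (20 neighbours) and Louvain clusters at resolution 0.5. Unnamed clusters of at least 100 cells and the macrophage-like cells were clustered again at 0.5. Clusters were named from marker lists, with numeric naming limits set after the data were seen. Doublets were kept in the main analysis (Scrublet called 2.82% and 2.37% of the Lmo7+/+ and Lmo7-/- cells), and their removal was an alternative.

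Counts were summed per class or state and library and divided by all UMIs of that sum. Intervals at 95% are exact Poisson for CPM, exact binomial (Clopper-Pearson) for ratios and for shares of cells, and cover counting error only. Cells were thinned to 1500 UMIs for shares. A genotype call needed 20 UMIs over both libraries, 1.5-fold and an interval without 0. A class call needed 2-fold in each library. The state spread was the highest over the lowest state CPM, at least 2-fold in both libraries. The iron-responsive element search used GENCODE M21 UTRs on GRCm38. The calculations were tested on simulated data.

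The 10 genes and all lists were chosen with earlier results of these data known. The genes named are the 10, the 5 list genes per direction with the largest macrophage ratio among those with at least 100 UMIs, and the 3 genes with the highest correlation for each of the 10 with at least 500 macrophage UMIs. Some genes that this rule names are not reported here. Others, named for a count they belong to or for a cluster, were chosen after their values were seen. Alternatives were 2 other cell filters, doublet removal, other resolutions, other scalings (edgeR 4.0.16 for TMM), per-cell means, removal of cells with UMIs of other types or of hemoglobin, and a higher count minimum. Clustering used igraph 0.11.9 and scikit-learn 1.9.0, doublet calls scanpy 1.11.5, intervals scipy 1.17.1, tables numpy 2.4.6 with pandas 2.3.3 and plots matplotlib 3.10.9, under Python 3.11.15 and R 4.3.3.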

Additional observations from a re-analysis of the deposited data

Results flagged for a closer look

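Hmox1 and Cd163 each differed between the libraries in opposite directions in different cell classes. Hmox1 had a log2 ratio, Lmo7-/- over Lmo7+/+, of -1.25 in dendritic-like cells and 1.38 in fibroblast-like cells. Cd163 had 1.49 in macrophage-like cells and -1.32 in the Enpp2 Serpine2 clusters. With 1 library per genotype the difference between classes was not tested. The dendritic-like value of Hmox1 was 0.09 (-0.87 to 1.03) without the top cell of each library, and the Enpp2 Serpine2 value of Cd163 was -1.06 (-2.31 to 0.14), so both intervals then spanned 0. The fibroblast-like value of Hmox1 (1.24) and the macrophage-like value of Cd163 (1.32) kept intervals above 0 without those cells.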

How the results depend on the processing

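No paired analysis was possible because there was 1 library per genotype. Of the 10 genes, the count differing between the libraries in macrophage-like cells was 1 and fell to 0 with at least 100 UMIs, since Cd163 was then not tested. In tumor cell-like cells it was 1 (Lcn2) and became 2 with the strict filter (Slc40a1 lower), with per-cell means (Slc11a1 lower) and, chosen after seeing the data, with the Enpp2 Serpine2 clusters counted as tumor cells (Slc40a1 higher, a log2 ratio of 0.60 against -0.54). The count of genes spread over states rose from 5 to 9 with the lenient filter. The list count of 3 became 5 at resolution 1.0. The count for macrophage against tumor cells, 8, ran from 6 to 8. Over the alternatives, the macrophage log2 ratio ran from 0.35 to 0.55 for Hmox1, 0.28 to 0.53 for Slc11a1, -0.17 to 0.03 for Ftl1 and -0.51 to 0.34 for Slc40a1, and the tumor cell ratio of Lcn2 from -1.85 to -1.36. Of 130 macrophage and 110 tumor cell values, 20 and 30 moved beyond their counting interval and 0 that had been called changed sign. Only Cd163 in macrophage-like and Lcn2 in tumor cell-like cells had been called. Some genes not called did change sign, and in macrophage-like cells Lcn2 kept its sign in 6 of 13 alternatives and Slc40a1 in 11 of 13. Depth limits Cd163, Lcn2 and Slc40a1 most.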
